A study of Mus musculus with 2 samples.

Results

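The 9 genes described here belong to the insulin-like growth factor (IGF) system: the ligands *Igf1* and *Igf2*, the receptor *Igf1r*, and the binding proteins *Igfbp2*, *Igfbp3*, *Igfbp4*, *Igfbp5*, *Igfbp6* and *Igfbp7*. They were chosen by name, as members of this signaling system, out of 19465 genes counted, and all 9 were detected in both sections. The study asked how mechanical loading of a healing fracture changes gene expression in and around bone, using Visium spatial transcriptomics of 1 section from a Control femur and 1 section from a Loaded femur. Both came from female bone cell reporter (BCR) mice, which carry fluorescent reporters at *Ibsp* and *Acp5*, received a mid-diaphyseal femoral osteotomy at 12 weeks of age and showed bridging at 3 weeks after surgery. From week 3 to week 5 the Loaded mouse received cyclic mechanical loading 3 times per week and the Control mouse sham-loading, and both femurs were collected at 17 weeks of age.

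With 1 section per group there was no replicate: no test was run, and a difference between sections cannot be told apart from a difference between these mice or these section planes. Transcripts were captured on spots 55 μm wide and 100 μm apart, so that a spot is a small piece of tissue that can hold several cell types, and fewer cells of a type cannot be told apart from less RNA per cell. Each section was divided into the bone region (the spots that the study assigned to bone), a rim of spots with their center within 250 μm of the nearest bone spot, and the remaining spots. The kept Control spots numbered 131 in the bone region, 253 in the rim and 1514 elsewhere, with 557259, 1052870 and 7374083 unique molecular identifiers (UMIs). In the Loaded section these were 146, 264 and 1021 spots with 409020, 1015622 and 3484165 UMIs. The median depth of a bone spot was 3478 UMIs in Control and 2621 in Loaded. The bone label is the study's, and detection of osteoblast genes alone does not bear it out. All 7 osteoblast genes were detected in both bone regions, with 2.01% of UMIs in Control and 6.49% in Loaded. The osteocyte genes were few in both, with 0.009% and 0.080% of UMIs, and in Control *Phex* had 2 UMIs and *Mepe* 3. Skeletal muscle genes (12 of 12 detected) made up 11.9% of UMIs in the Control bone region and 6.07% in the Loaded one. Both bone regions thus carried muscle transcripts, and whether these came from adjacent tissue was not tested.

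IGF1 and IGF2 are secreted growth factors that signal through the tyrosine kinase receptor IGF1R to the PI3K-AKT and MAPK pathways, and they support the growth and survival of osteoblasts and chondrocytes. In the extracellular space most of the ligand is held by IGF binding proteins, which lengthen its half-life, keep it from the receptor or store it in the matrix, and which proteases can cleave to release it. Bone matrix is a known store of both ligands together with their binding proteins.

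The genes lie on 6 chromosomes in GRCm38, the build of the authors' alignment (mm10). *Igf1* (ENSMUSG00000020053) lies on chromosome 10 from 87858265 to 87937042, *Igf2* (ENSMUSG00000048583) on chromosome 7 from 142650766 to 142666816, and *Igf1r* (ENSMUSG00000005533) on chromosome 7 from 67952827 to 68233668. *Igfbp2* (ENSMUSG00000039323, chromosome 1, 72824503 to 72852474) and *Igfbp5* (ENSMUSG00000026185, chromosome 1, 72857932 to 72874884) are neighbors transcribed toward each other. *Igfbp3* (ENSMUSG00000020427, 7206086 to 7213923) and *Igfbp4* (ENSMUSG00000017493, 99041244 to 99054392) lie on chromosome 11. *Igfbp6* (ENSMUSG00000023046) lies on chromosome 15 from 102144362 to 102149511 and *Igfbp7* (ENSMUSG00000036256) on chromosome 5 from 77349240 to 77408041. The counts come from probe pairs within the transcripts, so that a level can be compared between regions for 1 gene but not between genes.

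The results below turn on *Igfbp4*, *Igfbp5*, *Igfbp6* and *Igfbp7*, which had similar distributions over the sections, and the 250 bases before their transcription starts are given for that reason. The windows are RefSeq promoters of GRCm38.p6, on the strand of the gene: chr11:99040994-99041243 for *Igfbp4*, chr1:72874866-72875115 (minus strand) for *Igfbp5*, chr15:102143936-102144185 for *Igfbp6*, and chr5:77408046-77408295 (minus strand) for *Igfbp7*. RefSeq places the *Igfbp6* start upstream of the gene start given above. Capitals mark matches on either strand to 3 short motifs, TATAAA (the TATA box), GGGCGG (the GC box) and GGAATG (the motif bound by TEAD factors). No match overlapped another motif.
Igfbp4: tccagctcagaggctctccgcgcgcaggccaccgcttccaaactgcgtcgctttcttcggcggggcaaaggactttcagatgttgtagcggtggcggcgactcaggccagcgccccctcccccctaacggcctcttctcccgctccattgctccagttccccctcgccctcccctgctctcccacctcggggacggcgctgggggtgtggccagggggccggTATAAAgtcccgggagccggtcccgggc
Igfbp5: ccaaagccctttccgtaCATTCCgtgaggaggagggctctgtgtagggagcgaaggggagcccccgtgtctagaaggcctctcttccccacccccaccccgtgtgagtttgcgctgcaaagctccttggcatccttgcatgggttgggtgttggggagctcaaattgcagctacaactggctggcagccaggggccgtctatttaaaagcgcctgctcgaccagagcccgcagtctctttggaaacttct
Igfbp6: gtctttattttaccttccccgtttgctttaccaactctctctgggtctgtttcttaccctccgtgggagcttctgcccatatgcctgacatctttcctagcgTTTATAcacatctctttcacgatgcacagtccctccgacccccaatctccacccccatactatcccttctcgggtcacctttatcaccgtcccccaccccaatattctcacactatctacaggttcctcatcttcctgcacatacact
Igfbp7: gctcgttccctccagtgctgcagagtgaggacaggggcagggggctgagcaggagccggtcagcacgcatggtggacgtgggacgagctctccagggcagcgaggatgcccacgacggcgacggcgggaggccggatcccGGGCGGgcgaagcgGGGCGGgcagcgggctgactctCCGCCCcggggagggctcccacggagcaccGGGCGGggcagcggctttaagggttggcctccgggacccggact
The *Igfbp4* window held a TATAAA 28 to 23 bases before the start, and the *Igfbp6* window held one on the opposite strand, 148 to 143 bases before it. The *Igfbp5* window held 1 GGAATG on the opposite strand, 233 to 228 bases before the start. The *Igfbp7* window held 4 GGGCGG, 3 of them on the gene's strand, and had the highest GC content of the 4 (74%, against 49.6% for *Igfbp6*). No motif was common to the 4 windows. Of 32851 RefSeq promoter windows of this length, 12.4% held TATAAA, 32.7% GGGCGG and 12.6% GGAATG, so each match is a common one.

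Levels are given as UMIs of the gene per 10000 UMIs of the region with an exact Poisson 95% interval, and log2 ratios as sums of UMIs over summed scran size factors with an exact conditional binomial 95% interval. Both intervals cover counting error only. A gene is called higher or lower below where its log2 ratio is past 0.5 in that direction.

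Among the ligands, *Igf1* was lower in bone in Loaded than in Control. Its level there was 1.79 UMIs per 10000 in Control (1.46 to 2.18) and 1.1 in Loaded (0.802 to 1.47), which gave a log2 ratio of Loaded over Control of -0.82 (-1.37 to -0.30). In the rim it had 1.44 in Control and 1.57 in Loaded, and in the remaining spots 0.412 and 0.620. The interval of the log2 ratio included 0 in the rim (-0.05, -0.38 to 0.28) and in the remaining spots (0.21, -0.05 to 0.46). The rim value joins sides that differed in Control, as described below. Of the 3 regions, *Igf1* was lowest in the remaining spots of both sections.

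*Igf2*, an imprinted growth factor best known from fetal growth, had similar levels in bone and in the remaining spots of both sections. The bone region held 0.485 UMIs per 10000 in Control (27 UMIs) and 0.416 in Loaded (17 UMIs), and the remaining spots held 0.386 and 0.456. The interval of its log2 ratio included 0 in the bone region (-0.34, -1.31 to 0.59), the rim (0.46, -0.15 to 1.08) and the remaining spots (-0.14, -0.43 to 0.14). At these counts a difference of the size seen for *Igf1* was not detectable for *Igf2* in bone. The rim joins unlike parts. In its part outside the bone alone, Loaded over Control was 0.67 (0.03 to 1.32). In Loaded that part over the part toward the cavity had a log2 ratio of 2.56 (1.12 to 4.49), on 54 and 4 UMIs.

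*Igf1r*, which encodes the receptor for both ligands, was sparse. The bone region held 20 UMIs in Control (0.359 per 10000) and 5 in Loaded (0.122), with a log2 ratio of -1.67 (-3.44 to -0.22). The ratio was -0.72 in the rim (-1.55 to 0.08) and -0.60 in the remaining spots (-1.03 to -0.18), so that *Igf1r* was the only member called lower in Loaded in all 3 regions. With library totals the last of these was -0.22.

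*Igfbp2*, a circulating binding protein, was near the limit of detection, with 2 UMIs in the Control bone region and 0 in the Loaded one, where a count of 0 allows up to 3 UMIs, or 0.0733 per 10000 (0.0902 by the exact Poisson interval). Over whole sections it had 22 UMIs (Control) and 18 UMIs (Loaded). It had enough UMIs for a comparison only in the remaining spots (log2 ratio 0.70, -0.36 to 1.76, 17 UMIs in each section).

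*Igfbp3*, the main carrier of IGF in serum, was lower in Loaded in bone and rim and not in the remaining spots. The bone region held 1.56 UMIs per 10000 in Control (1.25 to 1.93) and 0.758 in Loaded (0.515 to 1.08), a log2 ratio of -1.16 (-1.80 to -0.55). These UMIs were gathered in few spots, which the intervals do not cover. The highest Control bone spot held 13 of 87 UMIs and the highest Loaded one 4 of 31, and the median spot held 0 in both. The rim held 0.959 and 0.482 (log2 ratio -1.16, -1.68 to -0.65), and the remaining spots 0.373 and 0.508 (0.06, -0.22 to 0.34). *Igfbp3* was also the only member called higher in bone than in the rim in both sections.

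*Igfbp4*, an inhibitor of IGF action until it is cleaved, differed between sections in bone and not in the rim taken as a whole. Its level in bone was 5.49 UMIs per 10000 in Control (4.89 to 6.14) and 3.64 in Loaded (3.08 to 4.28), a log2 ratio of -0.71 (-1.0 to -0.42). In the rim both sections stood at about the same level, 5.81 and 6.08 (log2 ratio -0.10, -0.27 to 0.06). That level joins sides of the rim that differed, as described below. In the remaining spots Loaded was above Control, with 2.45 per 10000 against 1.5 (0.32, 0.19 to 0.45).

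*Igfbp5*, which binds bone matrix and is made by osteoblasts, was among the best counted members. The bone region held 21.0 UMIs per 10000 in Control (19.9 to 22.3, 1173 UMIs) and 12.3 in Loaded (11.3 to 13.4, 504 UMIs), a log2 ratio of -0.89 (-1.04 to -0.74). The rim was lower in Loaded as well (19.97 and 14.1, log2 ratio -0.67, -0.77 to -0.57). The remaining spots differed little after normalization (9.76 and 12.0, log2 ratio -0.08, -0.14 to -0.03).

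*Igfbp6*, whose protein prefers IGF2 over IGF1, had the log2 ratio farthest from 0 among the 8 members compared in bone, with an interval that overlapped that of *Igf1r*. Its level in bone was 5.37 UMIs per 10000 in Control (4.77 to 6.01, 299 UMIs) and 1.44 in Loaded (1.1 to 1.86, 59 UMIs), a log2 ratio of -2.01 (-2.44 to -1.61). In the rim it was 5.33 and 2.04 (log2 ratio -1.55, -1.79 to -1.32), and in the remaining spots 1.22 and 1.55 (-0.04, -0.19 to 0.12). The Loaded bone region thus held *Igfbp6* at about the level of the remaining spots, while the Control bone region stood well above them.

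*Igfbp7*, which encodes a secreted protein of vessels and stroma that binds IGFs only weakly, was lower in Loaded in bone and rim, as was *Igfbp5*. The bone region held 23.0 UMIs per 10000 in Control (21.7 to 24.3, 1281 UMIs) and 12.4 in Loaded (11.3 to 13.5, 506 UMIs), a log2 ratio of -1.01 (-1.16 to -0.86). The rim held 18.0 and 13.5 (log2 ratio -0.58, -0.68 to -0.48), and the remaining spots 6.28 and 8.49 (0.05, -0.01 to 0.12).

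**Figure D1:**
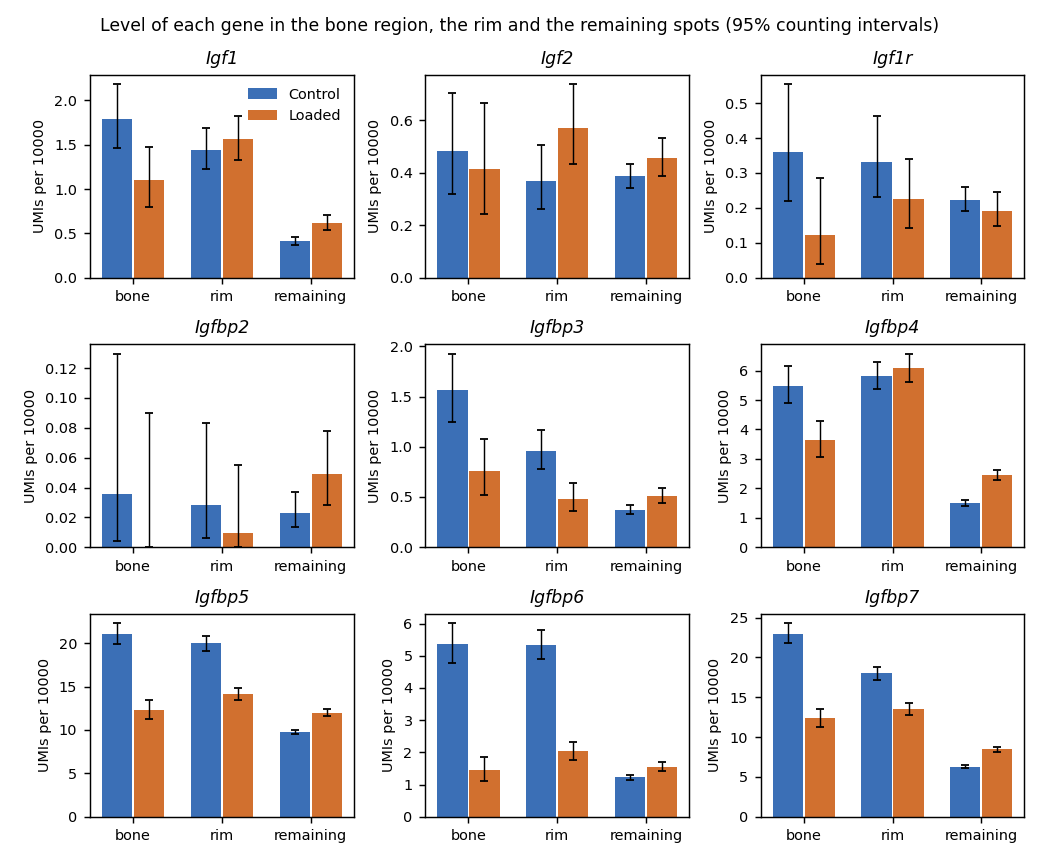
Bars show the level of each of the 9 genes (UMIs per 10000 UMIs, each panel with its own axis from 0) in the bone region, the rim and the remaining spots of the Control (blue) and Loaded (orange) section, with exact Poisson 95% intervals. In bone the Control bar is the higher one for every gene, with *Igfbp6* at 5.37 against 1.44.

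In the bone region 7 of the 8 members with enough UMIs were called lower in Loaded and 0 higher, and the median of their log2 ratios was -0.95. Of all 10003 genes tested there, 24.6% were called lower and 26.4% higher, with a median of 0.02. In the rim 5 of 8 members were lower and 0 higher, with a median of -0.63, where 20.9% of all genes were lower and 20.3% higher. In the remaining spots 1 of 9 members was lower (*Igf1r*) and 1 higher (*Igfbp2*), with a median of 0.05, against 18.5% and 22.2% of all genes. The share of members called lower was thus above that of all genes in bone and rim and below it in the remaining spots. Normalization by library totals moved the log2 ratios by 0.12 in bone, 0.17 in the rim and 0.38 in the remaining spots. With them the call counts stayed at 7 lower and 0 higher in bone, and became 4 lower and 1 higher in the rim and 0 lower and 3 higher in the remaining spots. The median over genes was then 0.14 in bone, 0.17 in the rim and 0.42 in the remaining spots. The shares of all genes called with library totals are not given. The signs of *Igf1* and *Igfbp4* in the rim, and of *Igf2*, *Igfbp5* and *Igfbp6* in the remaining spots, turned positive with library totals.

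**Figure D2:**
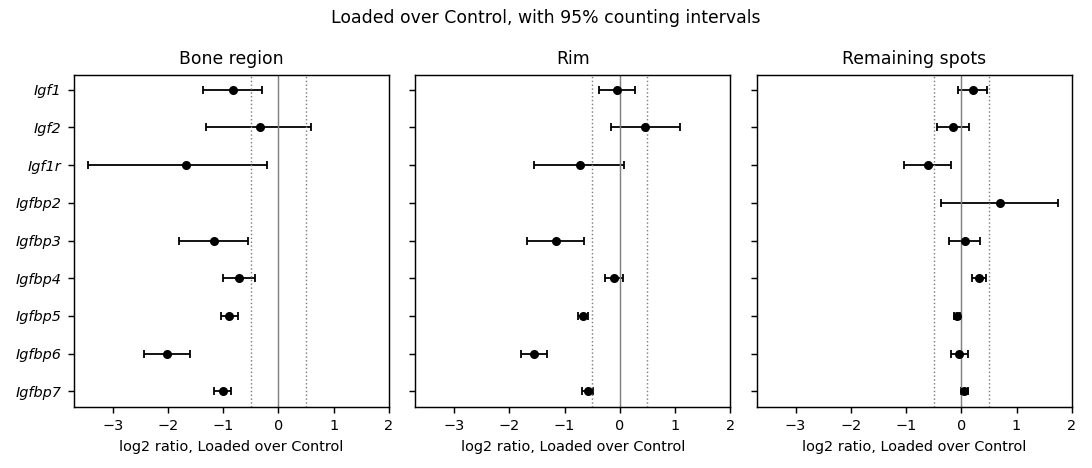
Points show the log2 ratio of Loaded over Control for each gene (x axis, by region) with exact conditional binomial 95% intervals, with dotted lines at -0.5 and 0.5, for genes with enough UMIs. In bone all 8 points lie below 0, and in the remaining spots the 9 points lie between -0.60 and 0.70.

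Osteoblast and osteocyte genes differed between the sections in the opposite direction to the members, and osteoclast genes differed less. The shares that follow are of library totals. The osteoblast list stood at 2.01% of UMIs in the Control bone region and at 6.49% in the Loaded one, the osteocyte list at 0.009% and 0.080%, and the osteoclast list at 0.383% and 0.482%, all higher in Loaded. The tendon and fibroblast list (*Tnmd*, *Scx*, *Fmod*, *Thbs4*, *Comp*, *Postn*, *Dcn*, *Pdgfra*, *Col3a1*, all 9 detected) stood at 0.882% in Control and 0.556% in Loaded, in the same direction as the members. Its part in the members' difference was not tested. Muscle genes were higher in Control as well, and their part was not tested either. A comparison of bone spots with a muscle share below 5% was one of sides too, since all 33 such Control spots lay on 1 side of the cavity, called side 2 below, and 46 of the 53 Loaded ones lay on 1 side. In these spots *Igfbp7* stood at 39.6 UMIs per 10000 in Control and 13.6 in Loaded, and *Igfbp6* at 8.48 and 1.22.

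The Control bone region was not uniform. The bone spots of each section lie in 2 bands on either side of the marrow cavity, called side 1 and side 2 here, and each band was cut at its middle into end 1 and end 2, which gave 4 sectors. The labels do not say which anatomical side each is, so that the sides of both sections cannot be matched. For *Igfbp7* the Control sectors held 7.53 and 11.2 UMIs per 10000 on side 1 and 39.4 and 34.5 on side 2. The Loaded sectors held 16.6 and 11.4 on side 1 and 12.5 and 8.70 on side 2, near Control side 1 and well below Control side 2. For *Igfbp5* the Control values were 10.3, 9.97, 36.2 and 26.8 and the Loaded values 12.2, 15.5, 9.42 and 11.9, in the same order. *Igfbp6* had 1.33, 2.99, 11.0 and 6.64 in Control and 1.46, 1.72, 1.36 and 1.18 in Loaded. *Igfbp4* had 1.92, 1.99, 9.42 and 8.41 in Control and 5.17, 3.44, 3.59 and 2.25 in Loaded. In each of these genes both sectors of Control side 2 lay above the other 6 sectors. The ranges of the sectors overlapped between sections for all 9 members, and the share of all genes with such an overlap is not given. For *Igfbp2* the overlap carries no information, since its level was 0 in every Loaded sector. *Igf1r* and *Igf2* had too few UMIs for their overlap to be read.

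*Igf1* and *Igfbp3* had the same pattern at lower counts. *Igf1* stood at 0.738, 0.997, 2.46 and 3.04 UMIs per 10000 in the Control sectors and between 0.683 and 1.36 in the Loaded ones. *Igfbp3* stood at 0.0984, 0.427, 2.04 and 3.74 in Control and between 0.322 and 1.27 in Loaded. *Igf2* stood at 0.295 to 0.703 in Control and 0.181 to 0.644 in Loaded. Its log2 ratio of side 2 over side 1 in Control was 0.32 (-0.89 to 1.61), on 17 and 10 UMIs. At these counts such a pattern could be neither seen nor excluded. *Igf1r* was too sparse to order, with 3 to 11 UMIs in a Control sector and 0 to 3 in a Loaded one.

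**Figure D3:**
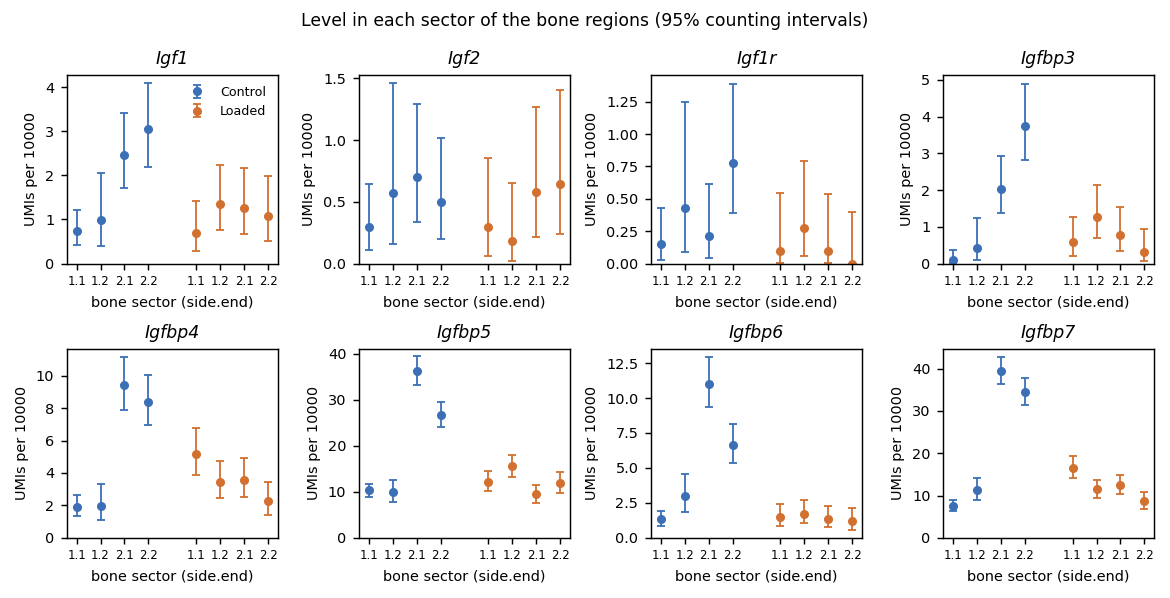
Points show the level (UMIs per 10000 UMIs) of 8 genes in each of the 4 bone sectors, labeled side.end, of the Control (blue) and Loaded (orange) section, with exact Poisson 95% intervals. Both side 2 sectors of Control lie above all other sectors for *Igf1*, *Igfbp3*, *Igfbp4*, *Igfbp5*, *Igfbp6* and *Igfbp7*.

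The sides of the Control bone region differed by more than the sections did for 5 of these 6 genes, and by slightly less for *Igfbp6*. Side 2 over side 1 had a log2 ratio of 3.59 for *Igfbp3* (2.31 to 5.25), 1.94 for *Igfbp6* (1.49 to 2.42), 1.81 for *Igfbp4* (1.38 to 2.27), 1.73 for *Igfbp7* (1.53 to 1.95), 1.38 for *Igf1* (0.69 to 2.14) and 1.24 for *Igfbp5* (1.04 to 1.44). In that comparison 7 of 8 members were called higher, against 35.4% of all genes. In the Loaded bone region the ratios of side 2 over side 1 lay between -0.64 and 0.29 for these 6 genes. Against Control side 2 alone, the Loaded bone region was lower for 7 of 8 members (24.8% of all genes), with -2.56 for *Igfbp6* (-2.99 to -2.14), -1.52 for *Igfbp7* and -1.29 for *Igfbp5*. Against Control side 1 alone, 2 of 8 were lower (*Igf1r* and *Igfbp6*, against 22.3% of all genes) and 2 higher (*Igfbp3* and *Igfbp4*, against 36.5%), with a median of 0.03. Against side 1 the log2 ratio was 0.12 for *Igf1* (-0.64 to 0.93), -0.06 for *Igfbp5* (-0.27 to 0.16), 0.21 for *Igfbp7* (-0.01 to 0.44), -0.61 for *Igfbp6* (-1.19 to -0.03) and 1.72 for *Igfbp3* (0.35 to 3.44). For *Igfbp6* the levels per 10000 UMIs, which are scaled by library totals, overlapped in their intervals between side 1 (1.76, 1.29 to 2.33) and Loaded (1.44, 1.1 to 1.86). *Igf1*, *Igfbp3*, *Igfbp4*, *Igfbp5*, *Igfbp6* and *Igfbp7* were thus lower in Loaded than on side 2 with intervals that left out 0, and against side 1 this was so for *Igfbp6* alone, with an upper bound near 0. Its level at end 1 of side 1 (1.33) lay within the range of the Loaded sectors (1.18 to 1.72).

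Other tissues differed between the sides of the Control bone too. The tendon and fibroblast list made up 0.275% of UMIs on side 1 and 1.47% on side 2, and 0.529% and 0.586% on the sides of the Loaded bone. The muscle list made up 19.6% of UMIs on Control side 1 and 4.45% on side 2, against 4.49% and 7.79% in Loaded. Osteoblast genes stood at 0.816% and 3.15% in Control and at 7.28% and 5.63% in Loaded, and osteoclast genes at 0.228% and 0.533% in Control and at 0.583% and 0.373% in Loaded. *Thbs4*, a tendon matrix gene, had 128 UMIs on Control side 1 and 799 on side 2, and *Tnmd* 3 and 16. The part of these tissues in the members' levels was not tested.

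**Figure D4:**
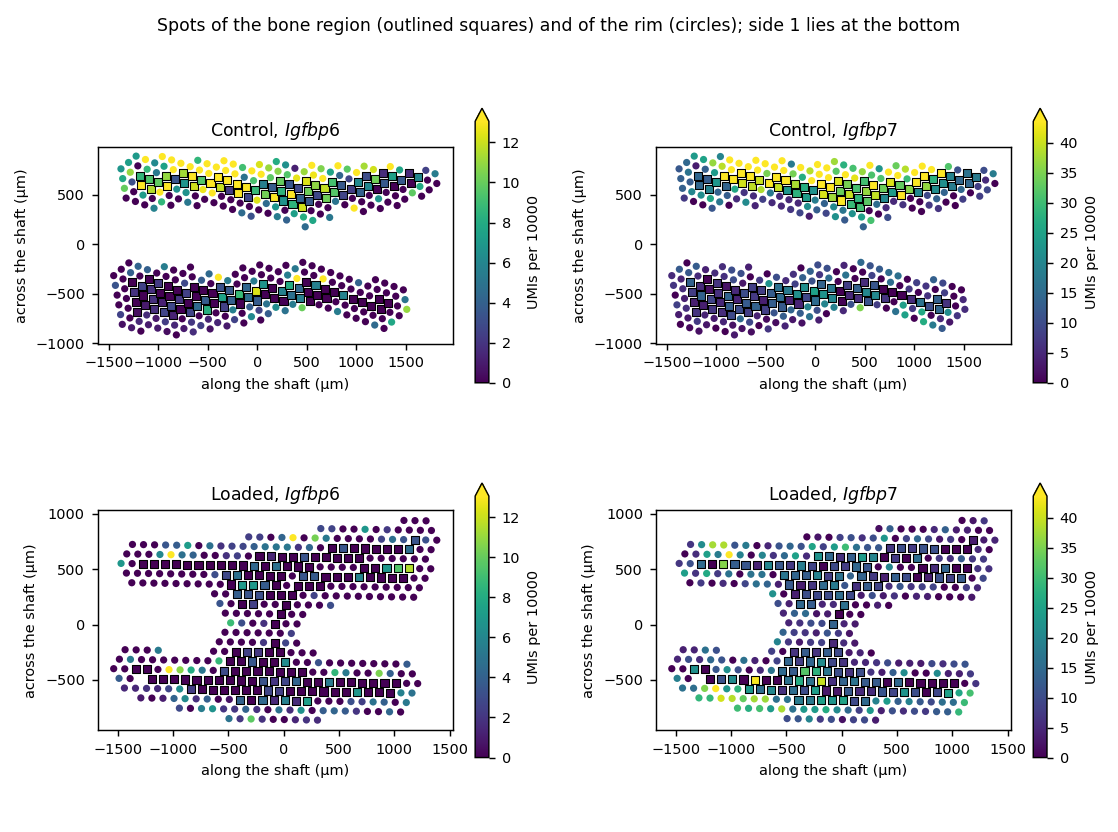
Each symbol is 1 spot of the bone region (outlined square) or the rim (circle), placed by its position along and across the shaft (μm) and colored by its UMIs per 10000 UMIs of *Igfbp6* (left) or *Igfbp7* (right), with Control above and Loaded below. Values above the top of the color scale have its last color. In Control the bright spots lie in the band at the top (side 2) and along its outer edge, and in Loaded few spots are bright on either side.

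The outer side of the rim showed the same contrast. On Control side 2 the outer rim held 39.4 UMIs per 10000 of *Igfbp7* (37.5 to 41.5), 38.7 of *Igfbp5*, 13.0 of *Igfbp4* and 11.8 of *Igfbp6*. On Control side 1 it held 4.61, 8.0, 1.52 and 1.35, respectively. The sides differed by a log2 ratio of 2.25 for *Igfbp7* (2.04 to 2.47), 2.28 for *Igfbp6* (1.9 to 2.69) and 2.25 for *Igfbp4* (1.88 to 2.63). *Igf2* had the opposite sign (-1.21, -2.29 to -0.18), on 14 and 22 UMIs. In the Loaded outer rim the ratio of side 2 over side 1 was -0.75 for *Igfbp7* (-0.95 to -0.56), -0.44 for *Igfbp4* and 0.35 for *Igfbp6* (-0.10 to 0.79). The tendon and fibroblast list stood at 0.168% and 1.43% of UMIs on the sides of the Control outer rim, and at 0.809% and 0.872% in Loaded.

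Taken over both sides, most members were more abundant outside the bone than toward the cavity. The outer rim of Control held 20.3 UMIs per 10000 of *Igfbp7* and its cavity rim 9.35, and in Loaded these were 16.9 and 6.48. For *Igf1* the values were 1.66 and 0.599 in Control and 1.97 and 0.730 in Loaded. The log2 ratio of outer over cavity rim was above 0.5 for 7 of 8 members in Control (31.3% of all genes) and for 8 of 8 in Loaded (32.6%). It was 1.40 for *Igfbp4* in Control (0.99 to 1.83) and 1.47 in Loaded (1.14 to 1.82), and 1.45 and 1.30 for *Igf1*. For *Igf1*, *Igfbp4*, *Igfbp5*, *Igfbp6* and *Igfbp7* in Control this rested on side 2. There *Igfbp7* stood at 39.4 UMIs per 10000 in the outer and 11.6 in the cavity rim. On side 1 the outer rim held less *Igfbp7* than the cavity rim (4.61 and 7.13), and the intervals overlapped for *Igfbp6* (1.35 and 1.76), *Igfbp5* (8.0 and 8.61), *Igfbp4* (1.52 and 1.67) and *Igf1* (0.544 and 0.463). *Igf1r* in Control had the opposite sign (-0.22, -1.39 to 1.13). *Igf2* had only 3 and 4 UMIs in the cavity rims of Control and Loaded, and 36 and 54 in the outer rims. In the Control outer rim it did not rest on side 2, with 22 UMIs on side 1 and 14 on side 2. Between the outer rims of both sections, the interval included 0 for *Igf1* (log2 ratio of Loaded over Control 0.04, -0.31 to 0.39) and *Igfbp4* (0.01, -0.16 to 0.19), while *Igfbp6* was lower in Loaded in the outer rim (-1.42, -1.67 to -1.17) and in the cavity rim (-1.7, -2.41 to -1.02). The outer rim difference depended on the side, as in bone: Control held 1.35 UMIs per 10000 of *Igfbp6* on side 1 and 11.8 on side 2, and Loaded 2.56 and 2.66. The outer rim values near 0 of *Igf1* and *Igfbp4* joined unlike sides too. For *Igfbp4* side 2 over side 1 had a log2 ratio of 2.25 in Control and -0.44 in Loaded. For *Igf1* it was 1.63 (1.00 to 2.32) in Control and -0.09 (-0.63 to 0.43) in Loaded.

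Within a section, bone and the rim as a whole were close in Control and further apart in Loaded. The rim as a whole joins its outer and cavity parts, which differed. In Control, bone over outer rim was -0.44 for *Igfbp4* (-0.65 to -0.24) and 0.02 for *Igfbp7* (-0.08 to 0.13). Bone over cavity rim was 0.96 (0.54 to 1.40) and 1.11 (0.90 to 1.33). In Loaded these were -1.07 and -0.42 for the outer rim, and 0.41 and 0.83 for the cavity rim. Bone over rim called 1 of 8 members higher in Control (*Igfbp3*, log2 ratio 0.54, 0.11 to 0.97) and 0 lower, against 10.8% and 20.9% of all genes. In Loaded it called 4 lower and 1 higher, against 16.7% and 18% of all genes. The lower ones were *Igfbp4* (-0.75, -1.02 to -0.49), *Igf1* (-0.52, -1.04 to -0.04), *Igfbp6* (-0.51, -0.96 to -0.09) and *Igf1r* (-0.91, -2.66 to 0.52), and *Igfbp3* was higher (0.64, -0.06 to 1.31). Library totals gave 3 lower in Loaded and TMM factors 5, with 1 higher in both. The median over genes was 0.02 with library totals and -0.05 with TMM factors, and the shares of all genes called are not given. The *Igfbp3* call in Control rested on end 2 of side 2, without which the log2 ratio was -0.32.

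Bone over the remaining spots called 5 of 9 members higher in Control, with 0 lower and a median of 1.25. These were *Igfbp6* (1.51, 1.32 to 1.7), *Igf1* (1.5, 1.16 to 1.83), *Igfbp3* (1.45, 1.08 to 1.8), *Igfbp4* (1.25, 1.07 to 1.44) and *Igfbp7* (1.25, 1.16 to 1.34). Of all genes 23.6% were higher and 32.1% lower, with a median of -0.14. In Loaded only *Igf1* was called higher (0.57, 0.07 to 1.04) and 2 of 9 were counted as lower, against 26.7% and 25.3% of all genes. Neither is a clear difference, since the interval of *Igf1r* ran from -2.58 to 0.38 and *Igfbp2* had 0 UMIs in bone against 17 elsewhere, with an upper limit of 0.79. Both comparisons depended on the scaling. Library totals moved the log2 ratios by 0.62 in Control and 0.26 in Loaded, which put the median over genes at 0.53 and 0.33. They gave 8 members higher and 0 lower in Control, and 4 higher and 2 lower in Loaded. TMM factors gave 0 higher and 4 lower in Loaded. The shares of all genes called under these scalings are not given, so these counts are not read as a result about the members.

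By distance, the levels of most members in Control were lower just beyond the rim than within it. Each distance bin joins both sides, and spots toward the cavity with those outside the bone. Their mix can change between bins, and its part in these steps was not tested. At 173 to 200 μm from the nearest bone spot, the outermost part of the rim, *Igfbp7* stood at 14.0 UMIs per 10000, *Igfbp5* at 17.6 and *Igfbp6* at 4.55. At 265 to 300 μm, the first spots outside it, these were 6.6, 8.87 and 1.49. In Loaded the same steps were small, from 12.5 to 9.36 for *Igfbp7*, from 13.2 to 13.9 for *Igfbp5* and from 2.1 to 1.97 for *Igfbp6*. *Igf1* went from 1.96 at 100 μm to 0.921 and then 0.411 in Control, and from 1.96 to 1.2 and 0.985 in Loaded. *Igfbp4* was highest at 100 μm in both sections, at 6.83 in Control and 7.44 in Loaded, above the bone spots themselves. Farther away Control lay below Loaded, with *Igfbp7* at 3.72 and 8.34 between 500 and 1000 μm, where the median muscle share of a spot was 18.5% in Control and 10.2% in Loaded. Beyond 2000 μm *Igfbp7* stood at 13.2 in Control and 5.85 in Loaded, but the distances differ there, with 583 Control spots up to 4530 μm and 98 Loaded spots up to 2506 μm.

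**Figure D5:**
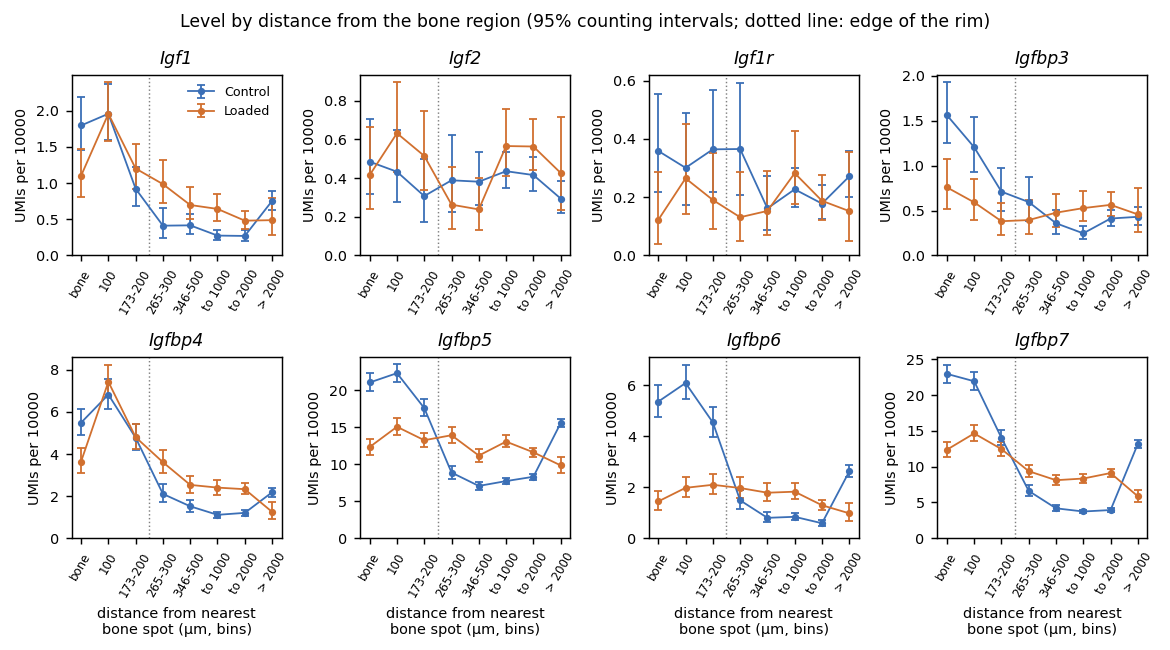
Lines show the level (UMIs per 10000 UMIs) of 8 genes in the bone region and in bins of distance from the nearest bone spot (x axis, μm, bins of unequal width) in Control (blue) and Loaded (orange), with exact Poisson 95% intervals and a dotted line at the edge of the rim. *Igfbp6* in Control is at 4.55 just inside that line and at 1.49 just outside it, and in Loaded it lies between 0.975 and 2.1 at all distances.

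Away from the bone, log2 ratios with scran size factors were above 0 for genes in general where muscle genes were lower, and for most members too. Such ratios depend on the scaling, and their values under other scalings are not given. Remaining spots outside the cavity were parted at a muscle share of 10%. In Control *Igfbp7* stood at 3.64 UMIs per 10000 in the spots with more muscle and at 20.2 in the others, and in Loaded at 5.96 and 13.3. *Igfbp6* stood at 0.791 and 3.52 in Control and at 1.2 and 2.24 in Loaded. The log2 ratio of other over muscle spots was 1.70 for *Igfbp7* in Control (1.62 to 1.79) and 0.68 in Loaded (0.57 to 0.79), and 1.27 and 0.51 for *Igf1*. Members past 0.5 were *Igf1*, *Igfbp2*, *Igfbp4*, *Igfbp6* and *Igfbp7* in Control, and only *Igf1*, *Igfbp4* and *Igfbp7* in Loaded. Of all genes 48.9% were past 0.5 in Control and 36.6% in Loaded, so the members are not read as set apart by this count. The median over all genes was 0.46 in Control and 0.20 in Loaded. *Igfbp3* (0.41), *Igfbp5* (0.40) and *Igf1r* (-0.24) lay below that median in Control. *Igf2* alone had the opposite sign with intervals that left out 0, at -1.01 in Control (-1.55 to -0.52) and -0.67 in Loaded (-1.17 to -0.18). Compared within one kind of spot, *Igfbp7* in Loaded over Control was 0.37 in muscle spots (0.27 to 0.47) and -0.65 in the others (-0.74 to -0.56), and *Igfbp6* was 0.27 (0.04 to 0.49) and -0.70 (-0.92 to -0.47). For these 2 genes the values near 0 of the remaining spots as a whole thus combined differences of opposite sign, which was not so for *Igfbp5* (-0.06 and -0.24).

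The share of single spots with a UMI was compared at equal depth, with each spot thinned to 1000 UMIs. 15 Loaded bone spots and no Control bone spot were too shallow. *Igfbp6* was found in 38.2% of Control bone spots (exact binomial 95% interval 29.8 to 47.1) and 8.4% of Loaded bone spots (4.27 to 14.5). In muscle spots away from the bone, its share was 11.1% in Control and 12.3% in Loaded, and the Loaded bone share was no higher than these. On the sides of the Control bone it was found in 13.0% and 66.1% of spots. *Igfbp7* was found in 75.6% of Control and 69.5% of Loaded bone spots (60.8 to 77.2), and *Igf1* in 19.1% and 13.0%, with overlapping intervals. Without thinning, 95 of 131 Control and 42 of 146 Loaded bone spots had a UMI of *Igfbp6*.

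The spatial patterns of the members were compared over square tiles of 400 μm, 112 in Control and 88 in Loaded. The correlations are descriptions, because tiles of 1 section share its library and their tissue makeup. *Igfbp4* and *Igfbp7* had a Spearman rho of 0.77 in Control and 0.84 in Loaded, *Igfbp5* and *Igfbp7* 0.77 and 0.76, *Igfbp6* and *Igfbp7* 0.79 and 0.66, and *Igf1* and *Igfbp7* 0.64 and 0.79. *Igf2* was apart, with 0.07 and 0.29 against *Igfbp7*. Among 4273 genes, those most like *Igfbp7* in both sections were *Fn1*, *Vim* and *Bgn* (smaller rho of the sections 0.82, 0.81 and 0.81), which encode fibronectin, vimentin and biglycan. Those most like *Igf1* were *Col3a1*, *Gas6* and *Igfbp4*, those most like *Igfbp4* were *Mgp*, *Igfbp7* and *S100a6*, and those most like *Igfbp5* were *Fn1*, *Igfbp7* and *Vim*. *Igfbp6* was most like *Dcn*, *Fn1* and *Nbl1*, and *Igfbp3* was most like *Mmp14*, *Mgp* and *Rgl1* (0.52, 0.48 and 0.48). For *Igf2* the highest value was 0.40, with *Fth1*.

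The other genes of the pathway were divided between both directions in bone and rim, and in the remaining spots more of them were lower than higher in Loaded. Of a list of 34 receptors, adaptors, kinases and proteases of IGF signaling, 27 had enough UMIs in bone, and 5 were higher and 4 lower in Loaded (18.5% and 14.8%, beside the 26.4% and 24.6% of all genes), with a median of -0.003. In the rim 5 were higher and 7 lower of 28, beside 20.3% and 20.9% of all genes. In the remaining spots 2 were higher and 9 lower of 31 (6.45% and 29.0%), beside 22.2% and 18.5% of all genes. *Pik3r1*, a regulatory subunit of PI3-kinase, was lower in Loaded in bone (log2 ratio -1.51, -2.23 to -0.85), rim (-1.09, -1.56 to -0.63) and remaining spots (-1.1, -1.31 to -0.9). *Foxo1*, a transcription factor restrained by AKT, was lower in bone (-1.01, -1.48 to -0.57), rim (-0.93, -1.26 to -0.59) and remaining spots (-0.54, -0.70 to -0.38). *Htra1*, a secreted serine protease that cleaves binding proteins, was lower in bone (-0.63, -1.06 to -0.21) and, within Control, higher in bone than in the remaining spots (0.96, 0.68 to 1.22). *Mtor*, the kinase at the center of growth control, was higher in bone in Loaded (0.86, 0.37 to 1.35). In the rim *Mapk3* (0.97) and *Grb2* (0.54) were higher and *Akt2* (-1.31) lower in Loaded, and *Akt2* was lower in the remaining spots too (-0.71). *Pappa*, the protease that cleaves IGFBP4, was higher in bone than in the remaining spots of Loaded (2.40, 1.56 to 3.23), where Loaded bone had 23 UMIs and Control bone 5.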

How the data were processed

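The data were Visium measurements of formalin-fixed, paraffin-embedded sections, 1 of a Control and 1 of a Loaded femur. The authors aligned the probe reads to mm10 and counted UMIs with Space Ranger 2.0.0, by gene and spot, and the deposited values are these raw counts, without normalization. Per the labels, R 4.3.1 and Seurat were used downstream. Bone spots were those whose barcodes the study listed. Spots below 500 UMIs or 250 genes were left out, as in the study. Of the spot barcodes, 557 occur in both sections, since they mark positions on the slide. Gene coordinates came from GENCODE M21 (GRCm38) and promoter windows from RefSeq.

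Sums of UMIs by region were normalized by the summed scran size factors of the spots (R 4.3.3, scran 1.30.0, edgeR 4.0.16 for TMM). The factors came from the bone spots where both parts compared were bone, and from all kept spots otherwise. The first kind covers Loaded over Control in bone, the ratios of bone sides, and Loaded bone over a Control side. Ratios of bone sides and of outer rim sides are thus on different scales. Genes needed at least 10 UMIs in the regions compared. Python 3.11.15 (pandas 2.3.3, scipy 1.17.1, numpy 2.4.6, matplotlib 3.10.9) gave intervals and figures. Intervals were tested on simulated Poisson counts, the model they assume. That checks the computation and says nothing about counts gathered in few spots. Sectors came from the direction that best parts the bone spots into 2 sides, and spots between the middles of the sides were called cavity. The spread of the members over sectors stands in for replicates only as a description. Depth is the number of UMIs given for each region. The members, the lists, the sectors and the alternatives were chosen with earlier results of these data known. All 9 members were named, and of the pathway list (34 of 35 genes found) in each comparison genes with at least 50 UMIs whose interval left out 0, at most the 3 highest and the 3 lowest. The text names those that bear on the members, leaves out 1 result that is not reported here, and adds the UMIs of *Pappa* in bone, chosen after its values were seen. Likeness was the smaller Spearman rho of the sections, over tiles with at least 8 spots, among genes with at least 200 UMIs in each section. Section images, micro-CT and strain data were not used here.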

Additional observations from a re-analysis of the deposited data

Results flagged for a closer look

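Loaded over Control was compared between the bone region, the rim and the remaining spots. Bone over rim and bone over remaining spots were compared between the sections. In 2 of these results the signs were opposite with both counting intervals leaving out 0. In neither was the difference itself tested, since there was 1 section per group. *Igfbp5* was higher in bone than in the remaining spots in Control (log2 ratio 0.49) and lower in Loaded (-0.22), a difference (Loaded minus Control) of -0.707, and with library totals the Loaded value was 0.04. *Igfbp4* was lower in Loaded than in Control in bone (-0.71) and higher in the remaining spots (0.32), a difference (bone minus remaining) of -1.035, and in remaining spots with a muscle share below 10% the second value was -0.04. Ratios of sides or of kinds of spot were not part of this count, and some had opposite signs too. For *Igfbp7* in the outer rim, side 2 over side 1 was 2.25 in Control and -0.75 in Loaded.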

How the results depend on the processing

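Of 702 member ratios recomputed under the alternatives, 569 stayed within the interval given in the report, 126 left it, and for 7 a called ratio changed sign. No paired analysis was possible because there was 1 section per group. The counts of members below are given without the share of all genes called under the same setting. They show how far the calls moved, and not whether the members differ from genes in general. The bone ratios kept their sign under every normalization, with 7 members lower. With a log2 ratio of 1 as the limit, 4 were lower in bone, 2 in the rim and 0 in the remaining spots, and 0 were higher in the remaining spots. With Control side 1 alone (chosen after seeing the data), 2 were higher and 2 lower, and *Igf1* (0.12), *Igfbp3* (1.72), *Igfbp4* (0.58) and *Igfbp7* (0.21) reversed. Leaving out 1 sector gave 5 to 8 lower. In the rim, library totals, totals without the 20 most abundant genes and the outer rim alone each gave 1 higher, and the outer rim alone and a rim to 350 μm gave 3 lower. In the remaining spots, library totals gave 3 higher and 0 lower. 0 were lower with totals without the 20 most abundant genes or a rim to 350 μm, and 0 were higher with equal weight for every spot or at least 50 UMIs. Spots with a muscle share below 10% gave 0 higher and 4 lower. *Igfbp2* reversed with equal weights (-0.20) and in those spots (-0.64). For bone over rim in Control, 0 were higher with a limit of 1, a rim to 150 μm, or without end 1 (2 lower) or end 2 (1 lower) of side 2, and without the latter *Igfbp3* reversed (-0.32). In Loaded, equal weights gave 1 lower, a limit of 1 gave 0 higher and 0 lower, leaving out end 1 of side 1 gave 2 lower, and leaving out its end 2 or a rim to 150 μm gave 0 higher. For bone over remaining spots in Control, library totals gave 8 higher, and equal weights or leaving out end 2 of side 2 gave 1 lower. In Loaded, library totals gave 4 higher, TMM factors 0 higher and 4 lower, equal weights 2 higher, a limit of 1 gave 0 higher and 1 lower, and at least 50 UMIs 1 lower. There, leaving out end 2 of side 1 or end 1 of side 2, or a rim to 150 μm, gave 0 higher, and leaving out end 2 of side 2 gave 2 higher. The cause of these moves was not tested, except that higher limits on ratio or UMIs call or test fewer genes by construction. Depth limits *Igf1r*, *Igf2* and *Igfbp2* in bone, where each section held under 30 UMIs. The genes most like a member depended on the tile: at 600 μm those of *Igfbp7* were *Vim*, *Crip1* and *Fn1*, those of *Igf1* were *Fndc1*, *Gas1* and *Ahnak*, and *Mmp14* and *Rgl1* for *Igfbp3* and *Fth1* for *Igf2* left the first 10. With spots thinned to 500 UMIs, *Igfbp6* was found in 22.9% of Control and 3.42% of Loaded bone spots.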
